A study of Mus musculus with 12 samples.

Results

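The 10 genes described here encode the adherens junction of the endothelium and its closest partners: Cdh5, Cdh2, Ctnnb1, Ctnna1, Ctnnd1, Jup, Pecam1, Esam, Ptprb, and Afdn. The rule that chose them names the genes and uses no measured value, but it was written with earlier results of these data known. All 10 passed the filter on low counts, out of 19150 genes tested and 54119 genes summed. RNA was measured in cerebral vessels isolated from the forebrain of wild type C57BL6 mice aged 2 to 3 months. The mice received LPS, a bacterial cell wall component that sets off systemic inflammation, at 10 mg/kg into the peritoneum, and vessels were taken 15 min, 30 min, or 4 h later. Control mice received PBS. Each of the 4 groups had 3 libraries, and each library pooled the vessels of 1 male and 1 female mouse, so the sexes cannot be compared. The libraries held 18.3 to 25.9 M fragments.

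Endothelial cells hold on to each other through cadherins, which bind across the cell border and are tied to the actin cytoskeleton inside the cell by catenins. VE-cadherin is the endothelium's own cadherin and the backbone of its adherens junction. In brain vessels these junctions sit beside the tight junctions of the blood-brain barrier, and their loosening is a known step in vascular leak during inflammation.

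The level of a gene is its CPM, a count divided by the size of the library and by its TMM factor, which corrects for a few abundant RNAs taking up a larger share of a library. CPM is not corrected for gene length, so levels of different genes were compared only in TPM, transcript abundances scaled for length and to a constant sum. A pair of tests came from the same edgeR fit of all 12 libraries. The first called a gene when its change was beyond 1.5-fold, the second when it differed from no change, both at an adjusted p below 0.05 over all 19150 genes. The verbs rose and fell are used for changes that passed at least the second. Log2 fold changes are given with their standard error (SE), and the 3 comparisons with PBS share the same PBS libraries.

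At LPS 4 h, 7 of the 10 genes were changed beyond 1.5-fold, 2 of them higher (Cdh5 and Esam) and 5 lower (Ptprb, Jup, Pecam1, Afdn, and Cdh2). Of all genes tested, 32.8% were called in this comparison, 19% higher and 13.8% lower. None of the 10 was called beyond 1.5-fold at LPS 15 min, where 4.18% of all genes were, or at LPS 30 min, where 4.58% were. In both, 0 of the 10 had an unadjusted p below 0.05 in that edgeR test, and DESeq2 and limma with the same fold limit also called 0. Against no change, 7 genes differed at LPS 15 min (1 higher and 6 lower), 9 at LPS 30 min (2 higher and 7 lower), and all 10 at LPS 4 h (4 higher and 6 lower). The shares among all genes were 38.6% at LPS 15 min (20.4% higher and 18.2% lower), 36.9% at LPS 30 min (19.7% and 17.2%), and 68.5% at LPS 4 h (34.9% and 33.7%). The median log2 fold change of the 10 genes was -0.20 after 15 min of LPS, -0.20 after 30 min, and -0.45 after 4 h. The median over all genes lay between -0.01 and 0 in each. The libraries of the LPS group and PBS did not overlap for 7 genes after 15 min of LPS, 10 after 30 min, and 10 after 4 h, against 49.3%, 46.7%, and 70.9% of all genes. With 3 libraries against 3, permuting the libraries of 1 gene gives no p under 0.10 at best, and the calls rest on a spread estimated across genes. In these bulk samples fewer cells of a type and less RNA per cell cannot be told apart: the sum of 15 endothelial marker genes was 17840 to 18320 CPM in PBS and 9322 to 9385 at LPS 4 h. Which cell types held the RNA of each of the 10 genes was not measured.

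**Figure D1:**
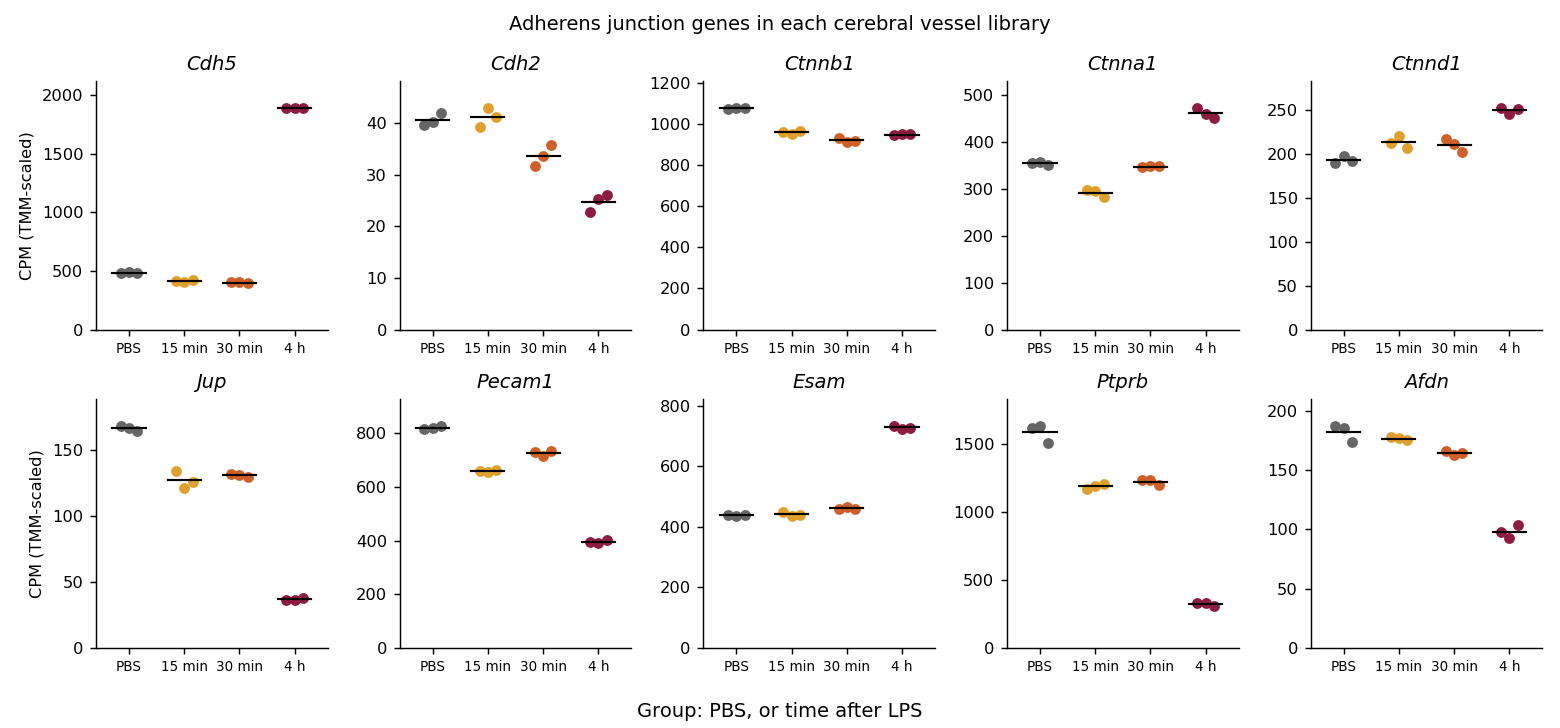
CPM (scaled by TMM factors; each panel has its own linear axis from 0) of the 10 genes in each library of PBS and the 3 LPS times; points are libraries and lines are group means. Cdh5 stood at 1888 to 1892 CPM in the 3 libraries of LPS 4 h and at or below 494 in the other 9, while Ptprb, Jup, Pecam1, Afdn, and Cdh2 were lowest at LPS 4 h.

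Gene positions are given on GRCm38. Cdh5 (ENSMUSG00000031871, chr8:104101625-104144511, plus strand) encodes VE-cadherin. It stood at 481, 494, and 482 CPM in the 3 PBS libraries, at 417, 407, and 420 after 15 min of LPS, at 402, 401, and 399 after 30 min, and at 1889, 1888, and 1892 after 4 h. Its level was therefore lower than in PBS in every early library and higher in every library of LPS 4 h. The log2 fold change was -0.23 (SE 0.0211, adjusted p = 8.17e-09 against no change) at LPS 15 min and -0.28 (SE 0.0212, adjusted p = 3.39e-10) at LPS 30 min. At LPS 4 h Cdh5 was 3.89-fold higher than in PBS, or 1.96 on the log2 scale (SE 0.0215, adjusted p = 2.86e-25 beyond 1.5-fold). Its main transcript, Cdh5-201, held 98.1% to 100% of the TPM of the gene in each library. Cdh5 and Afdn are among the genes of the ontology term on endothelial barrier establishment that the study picked for their change in these same samples, so they are not independent evidence on that term.

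Cdh2 (ENSMUSG00000024304, chr18:16588877-16809246, minus strand) encodes N-cadherin, which in brain vessels is best known for joining endothelial cells to pericytes. It had the lowest TPM of the 10 genes in every group. Its libraries held 39.6, 40.2, and 41.9 CPM in PBS and 39.3, 43.0, and 41.2 at LPS 15 min. The LPS 30 min libraries held 31.7, 33.7, and 35.8 CPM and those of LPS 4 h held 22.8, 25.4, and 26.02. PBS and LPS 15 min overlapped, and both later groups lay below them. The log2 fold change was 0.02 at LPS 15 min (SE 0.0575, adjusted p = 0.825 against no change, 95% interval -0.09 to 0.13), -0.27 (SE 0.0592, adjusted p = 9.61e-04) at LPS 30 min, and -0.71 (SE 0.0655, adjusted p = 0.0295 beyond 1.5-fold) at LPS 4 h. That last call was lost with DESeq2 (adjusted p = 0.338), without PBS replicate 3 (0.0706), and without LPS 4 h replicate 1 (0.151).

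Inside the cell, β-catenin (Ctnnb1) and plakoglobin (Jup) bind the same stretch of the cadherin tail, p120-catenin (Ctnnd1) binds nearer the membrane and slows cadherin uptake, and α-catenin (Ctnna1) links the complex to actin. Of these, Jup (ENSMUSG00000001552, chr11:100368958-100397763, minus strand) had the lowest log2 fold change at LPS 4 h. Its libraries held 169, 167, and 165 CPM in PBS, 134, 121, and 126 after 15 min of LPS, 132, 132, and 129 after 30 min, and 36.5, 36.3, and 38.1 after 4 h. All 9 LPS libraries lay below PBS. The log2 fold change was -0.39 (SE 0.0350, adjusted p = 4.83e-09 against no change) after 15 min of LPS, -0.35 (SE 0.0352, adjusted p = 3.30e-08) after 30 min, and -2.17 (SE 0.0431, adjusted p = 2.26e-20 beyond 1.5-fold) after 4 h, which is 4.51-fold lower.

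Ctnnb1 (ENSMUSG00000006932, chr9:120929216-120960507, plus strand), the other binding partner at that site, had a log2 fold change nearer 0 than that of Jup at each time. It stood at 1074, 1080, and 1078 CPM in PBS, at 962, 954, and 964 after 15 min of LPS, at 934, 914, and 915 after 30 min, and at 947.0, 949.9, and 949.6 after 4 h. Every LPS library lay below every PBS library, by a small margin. On the log2 scale they differed by -0.17, -0.23, and -0.18 (SE 0.0193, 0.0193, and 0.0195; adjusted p = 2.94e-07, 2.34e-09, and 1.70e-08 against no change), and none was called beyond 1.5-fold. With scaling by library size only, which moved the median of all genes at LPS 4 h from -0.01 to -0.71, Ctnnb1 was at -0.89 at LPS 4 h and was called (adjusted p = 8.94e-14). Within a library, the TPM ratio of Jup to Ctnnb1 was 0.119 ± 0.00745 (SD, n = 3) in PBS, 0.0990 ± 0.00367 after 15 min of LPS, 0.110 ± 0.0174 after 30 min, and 0.0268 ± 0.00108 after 4 h. Jup thus made up 10.6% ± 0.595 of the summed TPM of the pair in PBS and 2.61% ± 0.103 at LPS 4 h. These shares count a retained-intron transcript, Ctnnb1-215, that held 46.3% to 48.9% of the Ctnnb1 TPM in PBS. The share of Jup would be larger without it. The log2 change of the ratio from PBS to LPS 4 h was -2.15, and -1.88 on coding transcripts alone.

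For Jup and Ctnnb1, whose products bind the same site and whose RNAs came apart at LPS 4 h, the 250 bases before the annotated start are shown from RefSeq sequence on GRCm38.p6, 5′ to 3′ on the strand of the gene. Capitals mark the GC box, GGGCGG on either strand. The window of Jup is chr11:100397791-100398040 on the minus strand and overlapped no annotated gene. RefSeq gives 2 windows for Ctnnb1, and the upstream one is shown, chr9:120933150-120933399 on the plus strand, inside the annotated Ctnnb1 gene and outside its exons.
Jup: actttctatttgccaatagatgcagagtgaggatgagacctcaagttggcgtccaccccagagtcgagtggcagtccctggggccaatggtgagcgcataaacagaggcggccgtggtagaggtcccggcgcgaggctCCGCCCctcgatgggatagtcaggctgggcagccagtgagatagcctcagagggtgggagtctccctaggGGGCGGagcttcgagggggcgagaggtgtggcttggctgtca
Ctnnb1: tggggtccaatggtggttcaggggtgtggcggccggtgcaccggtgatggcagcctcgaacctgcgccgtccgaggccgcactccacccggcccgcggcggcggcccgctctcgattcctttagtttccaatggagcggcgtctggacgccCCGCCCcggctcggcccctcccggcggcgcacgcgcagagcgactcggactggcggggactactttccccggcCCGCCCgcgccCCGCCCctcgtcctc
The Jup window held 2 GC boxes at a GC content of 62.0%, the Ctnnb1 window shown 3 at 74.8%, and 32.7% of 32851 such windows held at least 1. Neither of these held the NF-kB motif (GGG, any pair of bases, then TTTCC; 1.4% of all windows), the AP-1 motif TGANTCA (6.7%), the E-box CACGTG (6.0%), or TATAAA (12.4%), each searched on both strands. The second Ctnnb1 window, chr9:120933328-120933577, overlaps exons of Ctnnb1-201 and held 2 GC boxes and 1 TATAAA, and none of the other motifs. These are matches of letters, not measured binding. Windows were found for 4 of the 10 genes.

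Ctnna1 (ENSMUSG00000037815, chr18:35118859-35254779, plus strand) and Ctnnd1 (ENSMUSG00000034101, chr2:84600071-84650765, minus strand) were higher at LPS 4 h than in PBS, both by less than 1.5-fold. Ctnna1 stood at 355, 358, and 351 CPM in PBS, 298, 296, and 283 after 15 min of LPS, 347, 348, and 348 after 30 min, and 474, 459, and 452 after 4 h. It fell at LPS 15 min (log2 fold change -0.28, SE 0.0252, adjusted p = 5.68e-09 against no change), was at -0.03 (SE 0.0252, adjusted p = 0.417, 95% interval -0.08 to 0.02) at LPS 30 min, and rose at LPS 4 h (0.38, SE 0.0254, adjusted p = 4.95e-12). Ctnnd1 stood at 190, 198, and 192 CPM in PBS, 213, 221, and 206 after 15 min of LPS, 217, 212, and 203 after 30 min, and 253, 245, and 251 after 4 h. It rose at all 3 times, with log2 fold changes of 0.14 (SE 0.0310, adjusted p = 8.40e-04), 0.12 (SE 0.0312, adjusted p = 0.00340), and 0.37 (SE 0.0318, adjusted p = 4.47e-10). With that scaling by library size only, Ctnna1 and Ctnnd1 turned to -0.32 and -0.33 at LPS 4 h and Ctnnd1 to -0.04 at LPS 30 min; their rises are thus relative to the median gene.

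Pecam1, Esam, and Ptprb belong to the endothelial membrane around the cadherin. Pecam1 (ENSMUSG00000020717, chr11:106654217-106750628, minus strand) encodes CD31, an immunoglobulin-family adhesion molecule of the cell border. It stood at 816, 821, and 828 CPM in PBS, 659, 656, and 662 after 15 min of LPS, 731, 715, and 735 after 30 min, and 397, 390, and 402 after 4 h. All LPS libraries were below PBS, with the LPS 30 min libraries above those of LPS 15 min. On the log2 scale the changes were -0.32 (SE 0.0214, adjusted p = 3.77e-11 against no change), -0.18 (SE 0.0214, adjusted p = 6.10e-07), and -1.05 (SE 0.0221, adjusted p = 4.88e-16 beyond 1.5-fold), or 2.07-fold lower at LPS 4 h.

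Esam (ENSMUSG00000001946, chr9:37528078-37538319, plus strand), a related adhesion molecule of endothelial cells and platelets, went the other way. It stood at 437.4, 437.1, and 439.2 CPM in PBS and at 449.8, 436.6, and 439.6 at LPS 15 min, which overlapped. It then stood at 458, 466, and 459 at LPS 30 min and 733, 724, and 727 at LPS 4 h, both above PBS. These were differences of 0.01 on the log2 scale (SE 0.0218, adjusted p = 0.667 against no change, 95% interval -0.03 to 0.06), 0.07 (SE 0.0218, adjusted p = 0.0100), and 0.73 (SE 0.0219, adjusted p = 3.79e-07 beyond 1.5-fold). With scaling by library size only it was -0.09 at LPS 30 min and 0.03 at LPS 4 h, and the call was lost.

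Ptprb (ENSMUSG00000020154, chr10:116275523-116389535, plus strand) encodes VE-PTP, an endothelial receptor phosphatase that binds VE-cadherin and the angiopoietin receptor Tie2 (Tek) and keeps both less phosphorylated. It had the lowest log2 fold change of the 10 genes at LPS 4 h. Its libraries held 1619, 1636, and 1507 CPM in PBS, 1174, 1194, and 1209 after 15 min of LPS, 1239, 1235, and 1201 after 30 min, and 329, 334, and 312 after 4 h. No LPS library reached the lowest PBS library. The log2 fold change was -0.41 (SE 0.0284, adjusted p = 5.45e-11 against no change), -0.37 (SE 0.0284, adjusted p = 2.93e-10), and -2.29 (SE 0.0305, adjusted p = 4.42e-24 beyond 1.5-fold), or 4.89-fold lower at LPS 4 h.

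Afdn (ENSMUSG00000068036, chr17:13760539-13906150, plus strand) encodes afadin, the actin-binding partner of nectins and an effector of Rap1. It stood at 188, 186, and 174 CPM in PBS, 178, 177, and 176 after 15 min of LPS, 167, 163, and 165 after 30 min, and 97.4, 93.0, and 104 after 4 h. The LPS 15 min libraries lay within the range of PBS and the later ones below it. On the log2 scale the differences were -0.04 (SE 0.0345, adjusted p = 0.336 against no change, 95% interval -0.11 to 0.02), -0.15 (SE 0.0349, adjusted p = 0.00195), and -0.89 (SE 0.0382, adjusted p = 2.68e-08 beyond 1.5-fold), or 1.86-fold lower at LPS 4 h.

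**Figure D2:**
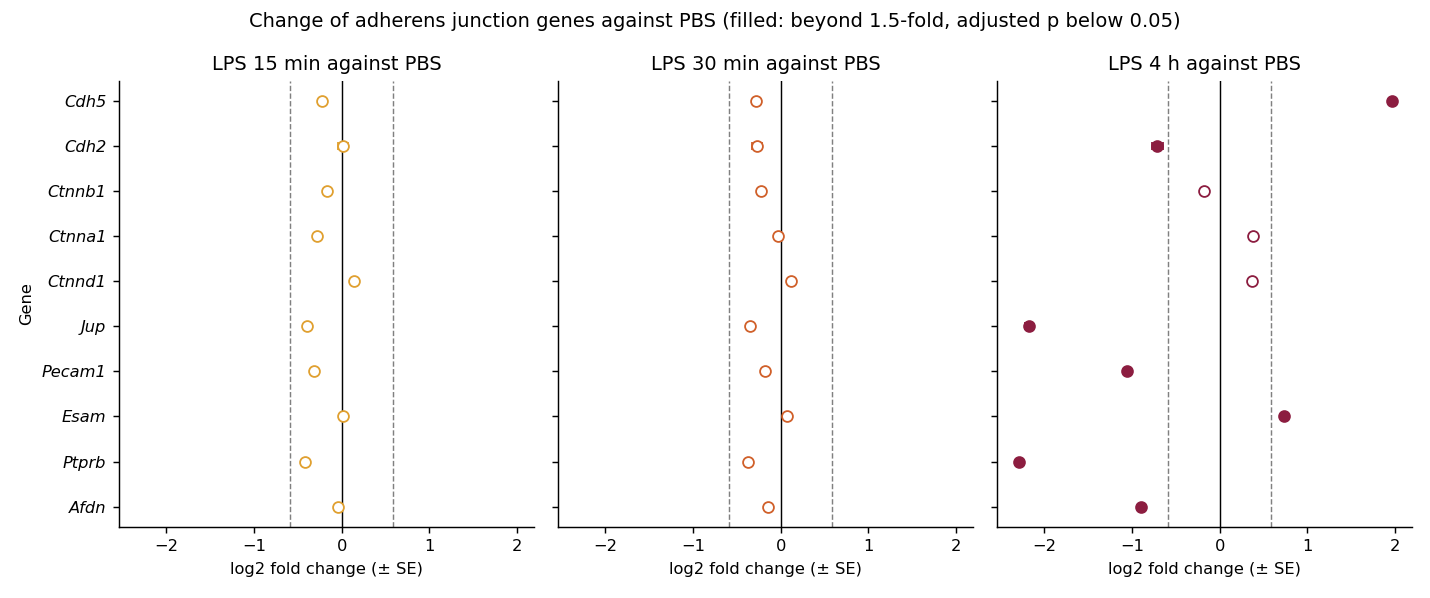
Log2 fold change with SE (bars, mostly smaller than the points) of the 10 genes against PBS at the 3 LPS times; dashed lines mark 1.5-fold and filled points were called beyond it at an adjusted p below 0.05. All points lie inside the dashed lines at the early times, and 7 of 10 lie outside at LPS 4 h, from -2.29 (Ptprb) to 1.96 (Cdh5).

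Between the LPS groups, none of the 10 genes was called beyond 1.5-fold from LPS 15 min to LPS 30 min (4.65% of all genes were; 0 of the 10 had an unadjusted p below 0.05, and DESeq2 and limma also called 0), and 6 differed from no change (37.4% of all genes), or 3 without LPS 30 min replicate 2 or 3. Ctnna1 rose by 0.25 (SE 0.0254, adjusted p = 3.78e-08), Pecam1 by 0.14 (SE 0.0214, adjusted p = 1.28e-05), and Esam by 0.06 (SE 0.0218, adjusted p = 0.0333) on the log2 scale. Cdh2, at -0.29 (SE 0.0593, adjusted p = 4.68e-04), Afdn, at -0.10 (SE 0.0351, adjusted p = 0.0259), and Ctnnb1, at -0.06 (SE 0.0194, adjusted p = 0.0179), fell. From LPS 30 min to LPS 4 h, 6 genes were called beyond 1.5-fold (28.6% of all genes), Cdh5 and Esam higher (16.9% of all genes were) and Jup, Pecam1, Ptprb, and Afdn lower (11.8%). In that comparison 9 differed from no change (65.3% of all genes), and Ctnnb1 did not (log2 fold change 0.04, adjusted p = 0.0600). The Cdh5 difference was 2.24 (SE 0.0218, adjusted p = 1.90e-26 beyond 1.5-fold), that of Ptprb -1.92 (SE 0.0303, adjusted p = 5.93e-22), and that of Jup -1.82 (SE 0.0440, adjusted p = 4.71e-18). The Esam call was lost with scaling by library size only, without the filter, with a transcript length offset, and with limma, and the Afdn call was lost with limma (adjusted p = 0.176 with 1 added and 0.198 with 10). With library size only, Cdh2 gained a call (-0.98, adjusted p = 2.31e-06).

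The order of the 10 genes by TPM differed between the groups. It counts all transcripts of a gene, also non-coding ones, and was not made for coding transcripts alone. In PBS the non-coding Ctnnb1-215 held 46.3% to 48.9% of Ctnnb1, and Afdn-203 held 51.3% to 55.2% of Afdn. The main coding transcript of Ctnnb1, Ctnnb1-201, held 362 to 377 TPM in PBS, below Esam-201 at 402 to 408. The places of Ctnnb1 and Afdn therefore depend on which transcripts are counted. In PBS it ran Ctnnb1 (788 TPM), Esam (459), Pecam1 (431), Ptprb (212), Cdh5 (200.0), Ctnna1 (176), Afdn (97.9), Jup (93.5), Ctnnd1 (62.6), and Cdh2 (15.1). The libraries of neighbours in that order did not overlap, except for Ptprb with Cdh5 and for Afdn with Jup. The first 3 places were the same at LPS 15 min and LPS 30 min. Below them, Cdh5 stood above Ctnna1 in PBS and at LPS 15 min (170 and 151 TPM), while at LPS 30 min Ctnna1 (142) stood above Cdh5 (133), without overlap in any of these groups. At LPS 15 min Cdh5 also stood above Ptprb (157) without overlap. At LPS 4 h Cdh5 stood first at 417 TPM, above Esam (400.4) and Ctnnb1 (387), with no overlap among the 3. Ctnna1 (125), Pecam1 (112), Ctnnd1 (43.1), Afdn (28.2), Ptprb (23.0), Jup (10.3), and Cdh2 (4.65) followed, again with no overlap between neighbours. TPM is not corrected for the share that a few abundant RNAs take up, and CPM as used here is. Ctnna1, Ctnnd1, and Esam were higher in CPM but lower in TPM at LPS 4 h than in PBS.

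Ratios within a library do not depend on that scaling. The TPM ratio of each of the other 9 genes to Cdh5 was lower in every library of LPS 4 h than in any PBS library. The ratio of Ptprb to Cdh5 was 1.06 ± 0.0465 (SD, n = 3) in PBS, 0.927 ± 0.0188 after 15 min of LPS, 0.991 ± 0.0129 after 30 min, and 0.0551 ± 0.00187 after 4 h. For Jup to Cdh5 it was 0.467 ± 0.0201, 0.411 ± 0.00609, 0.472 ± 0.0754, and 0.0248 ± 6.68e-04. One LPS 30 min library, replicate 1, held 75.5 TPM of Jup where the other pair held at most 57.4, and only 70.3% of its Jup TPM was assigned to Jup-201. Against Cdh5, the log2 change of the ratio from PBS to LPS 4 h was -2.09 for Ctnnb1, -1.60 for Ctnnd1, and -1.56 for Ctnna1. It was -1.26 for Esam, -2.76 for Cdh2, -2.86 for Afdn, -2.998 for Pecam1, -4.23 for Jup, and -4.26 for Ptprb. The size of these changes depends on how transcripts are counted: 16 of 30 alternative values moved by at least 1 SD, and 0 changed sign. A ratio shows unequal change and does not tell which of its genes moved, or whether the same cells held both RNAs.

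**Figure D3:**
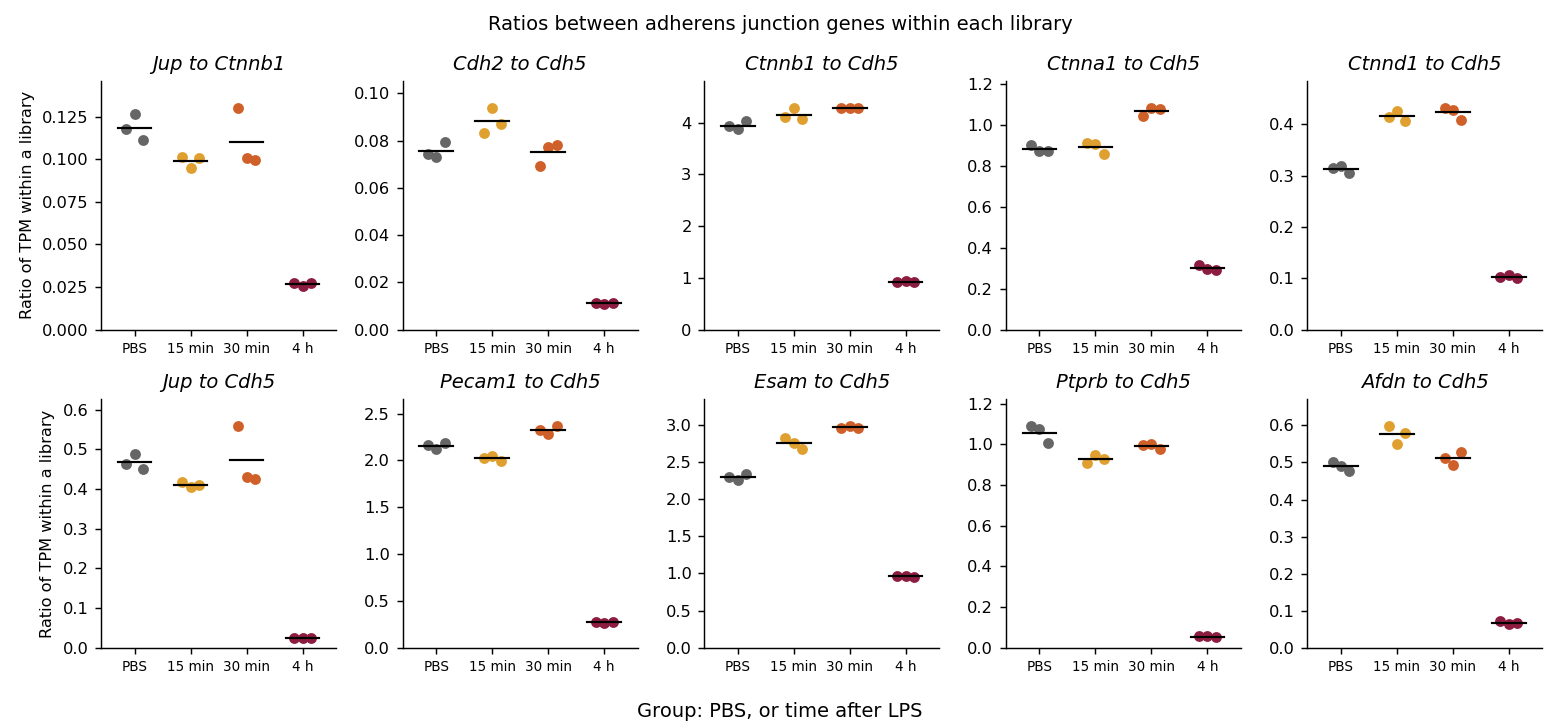
TPM ratios between adherens junction genes within each library of PBS and the 3 LPS times (linear axes from 0; points are libraries and lines are group means). All 10 ratios, Jup to Ctnnb1 and 9 genes to Cdh5, are lowest in the 3 libraries of LPS 4 h, and Jup is spread at LPS 30 min by 1 library.

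The transcripts behind the genes differed in how well they could be told apart. For Ctnnb1, a retained-intron transcript, Ctnnb1-215, held 46.3% to 48.9% of the TPM of the gene in PBS and 52.3% to 53.8% at LPS 4 h. For Afdn, a non-coding transcript, Afdn-203, held 51.3% to 55.2% in PBS. Of their bases, 92.8% (Ctnnb1-215) and 86.8% (Afdn-203) also lie in exons of coding transcripts, so reads could be split between them in more than 1 way. Cdh2-201 held 54.1% to 65.6% of Cdh2 in PBS but 46.2%, 100%, and 100% in the libraries of LPS 4 h, where Cdh2-202 held the rest. These Cdh2 shares varied among replicates as much as between groups. Pecam1-207 held 13.4% to 15.3% of Pecam1 in PBS and 17.8% to 19.7% at LPS 4 h, and Ctnnd1-217 held 32.1% to 33.9% and 38.1% to 42.5% of Ctnnd1. These shares were not tested. Genes on the opposite strand overlap Ctnna1 (Lrrtm2, with 2.32% as many fragments), Afdn (Tcte2, 1.34%), and Ctnnb1 (Ulk4, 1.10%), and the sources used here do not state that strand was used in counting.

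**Figure D4:**
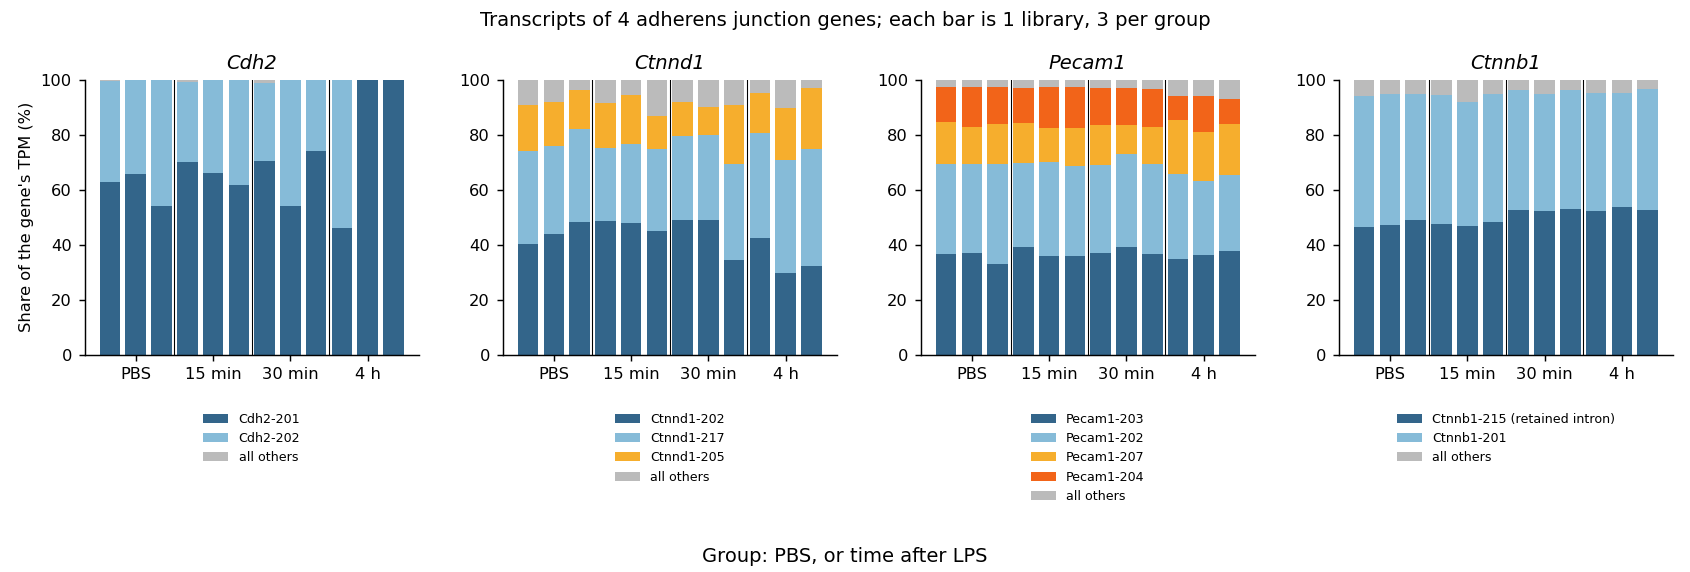
Share (%) of the TPM of a gene held by each transcript above 5% on average, for Cdh2, Ctnnd1, Pecam1, and Ctnnb1; each bar is 1 library, in groups of 3 for PBS and the 3 LPS times. Cdh2-201 holds 46.2% in 1 library of LPS 4 h and 100% in the others, and Ctnnb1-215, a retained-intron transcript, holds close to 50% throughout.

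The genes whose CPM followed that of Cdh5 most closely over the 12 libraries were Gbp9 (Pearson's r = 0.9996), Trim21 (0.9993), Enpp4 (0.9993), Abca1 (0.9993), and Tor3a (0.9991). Gbp9 is an interferon-induced GTPase and Abca1 a cholesterol exporter. Gbp9 stood at 103 CPM in PBS, 78.1 after 15 min of LPS, 75.2 after 30 min, and 1378 after 4 h, so it too was lower at the early times. The libraries fall into LPS 4 h and the rest, and 374 of 10883 genes with a mean of at least 10 CPM had r above 0.99. The likeness is given as a description.

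Other genes of the junction, 67 in 7 lists, were also read in the test beyond 1.5-fold. At LPS 4 h 19 were called higher and 8 lower, together 40.3% of those listed, against 32.8% of all genes (19% higher and 13.8% lower). Their median was 0.12 on the log2 scale. At LPS 15 min 3 were called lower and none higher. At LPS 30 min 1 was called higher and 2 lower. These were 4.48% at each time, against 4.18% and 4.58% of all genes. Among the 9 other cadherins, Cdh3 (P-cadherin) fell at LPS 15 min, from 9.89 ± 0.717 to 4.54 ± 1.05 CPM (SD, n = 3; log2 fold change -1.11, adjusted p = 0.00641), and rose to 20.7 ± 1.71 at LPS 4 h (1.06, adjusted p = 0.00106). Pcdh12, an endothelial protocadherin, fell from 7.17 ± 0.369 CPM to 3.53 ± 0.177 at LPS 30 min (-1.02, adjusted p = 0.0307) and 1.68 ± 0.247 at LPS 4 h (-2.10, adjusted p = 4.61e-08). The other 7 were not called against PBS at any time. From LPS 15 min to LPS 30 min, 1 of the 67 genes was called (1.49%, against 4.65% of all genes): Cdh1 (E-cadherin), named after its value was seen, rose from 3.25 ± 0.228 to 8.68 ± 0.709 CPM (1.41, adjusted p = 9.13e-05), with 6.09 ± 1.13 in PBS, and no alternative was run for it. Both genes had few counts, and the Cdh3 call at LPS 15 min and the Pcdh12 call at LPS 30 min were each lost in several of the alternatives. The former was lost without LPS 15 min replicate 3 (adjusted p = 0.0656) and with limma, and the latter with DESeq2, limma, no filter, and a length offset and without PBS replicate 2 or 3 or LPS 30 min replicate 1 or 2 (0.0734 to 0.102).

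Of 16 other catenins and actin linkers, 5 were called higher and 2 lower at LPS 4 h. Actn1 (α-actinin, an actin cross-linker) went from 178 ± 3.003 to 477 ± 9.26 CPM (log2 fold change 1.42, adjusted p = 4.96e-18), and Vcl (vinculin, recruited to junctions under tension) from 144 ± 8.78 to 342 ± 6.32 (1.25, adjusted p = 2.37e-14). Ajuba, a LIM protein bound to α-catenin, fell (-1.58, adjusted p = 3.43e-10), as did Arvcf, a relative of p120-catenin (-1.49, adjusted p = 1.59e-11). Of 7 nectins and nectin partners 2 were called higher and none lower at LPS 4 h. Pvr, a nectin-like receptor, stood at 18.6 ± 0.402 CPM in PBS, 33.7 ± 1.04 at LPS 30 min (0.86, adjusted p = 5.80e-05), and 194 ± 2.16 at LPS 4 h (3.38, adjusted p = 1.07e-24). Nectin3 rose at LPS 4 h (0.75, adjusted p = 0.0371), a call lost with DESeq2, limma, library size only, no filter, a length offset, and a fit of only those groups, and without PBS replicate 2 or 3 or LPS 4 h replicate 3 (adjusted p = 0.0645 to 0.178). The Pvr call at LPS 30 min was lost with limma and with library size only.

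Of 13 genes of the Rap1 and CCM pathway, which strengthens endothelial adhesion from inside the cell, 5 were called higher and none lower at LPS 4 h. Rasip1, a Rap1 effector of the endothelium, went from 311 ± 7.64 to 1715 ± 30.9 CPM (log2 fold change 2.46, adjusted p = 1.16e-26), and Rap1b, a GTPase, from 149 ± 2.09 to 462 ± 11.7 (1.63, adjusted p = 7.47e-21). Rap1b and Rapgef2, both among the 5, and F11r of the last list are in the same ontology term list picked from these samples, and the same holds for them. Of 11 kinases and phosphatases of the complex, 3 were called higher and 2 lower at LPS 4 h. Ptpn1, the phosphatase PTP1B, rose by 2.36 (adjusted p = 6.56e-21) and Yes1, a kinase of the Src family, by 1.22 (adjusted p = 8.08e-12). Tek, the Tie2 receptor and a partner of Ptprb, went from 516 ± 2.92 to 86.4 ± 2.82 CPM (-2.58, adjusted p = 1.42e-25). Kdr, the VEGF receptor whose signalling phosphorylates the complex, fell at all 3 times, from 352 ± 6.76 CPM to 204 ± 4.80 (-0.79, adjusted p = 1.10e-06), 176 ± 2.498 (-0.99, adjusted p = 4.23e-12), and 77.4 ± 1.44 (-2.18, adjusted p = 3.07e-23).

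Of 5 proteases that cleave cadherins 2 were called higher and 1 lower at LPS 4 h. Adam9 rose by 2.54 (adjusted p = 6.09e-22) and Adam17 by 0.92 (adjusted p = 4.00e-08), and Adam10, the protease best known for shedding VE-cadherin, fell by 0.77 (adjusted p = 2.12e-06) on the log2 scale. Of 6 other immunoglobulin-family junction proteins 1 was called higher and 2 lower at LPS 4 h. F11r (JAM-A) rose by 1.68 (adjusted p = 1.15e-20), Cd99l2 fell by 0.86 (adjusted p = 8.30e-05), and Icam2 fell by 0.67 (adjusted p = 0.0171). Mcam (CD146) fell at LPS 15 min (-0.69, adjusted p = 0.00296) and was at 0.31 at LPS 4 h, not called. The Mcam call was lost with limma, and that of Icam2 with DESeq2, with limma with 10 added, and without LPS 4 h replicate 1 (adjusted p = 0.0696). With scaling by library size only, the LPS 4 h calls of Cdh3, Vcl, Nectin3, Yes1, and Adam17 were lost, and no called change of the named list genes other than Cdh1, which was not rerun, turned its direction under any alternative.

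**Figure D5:**
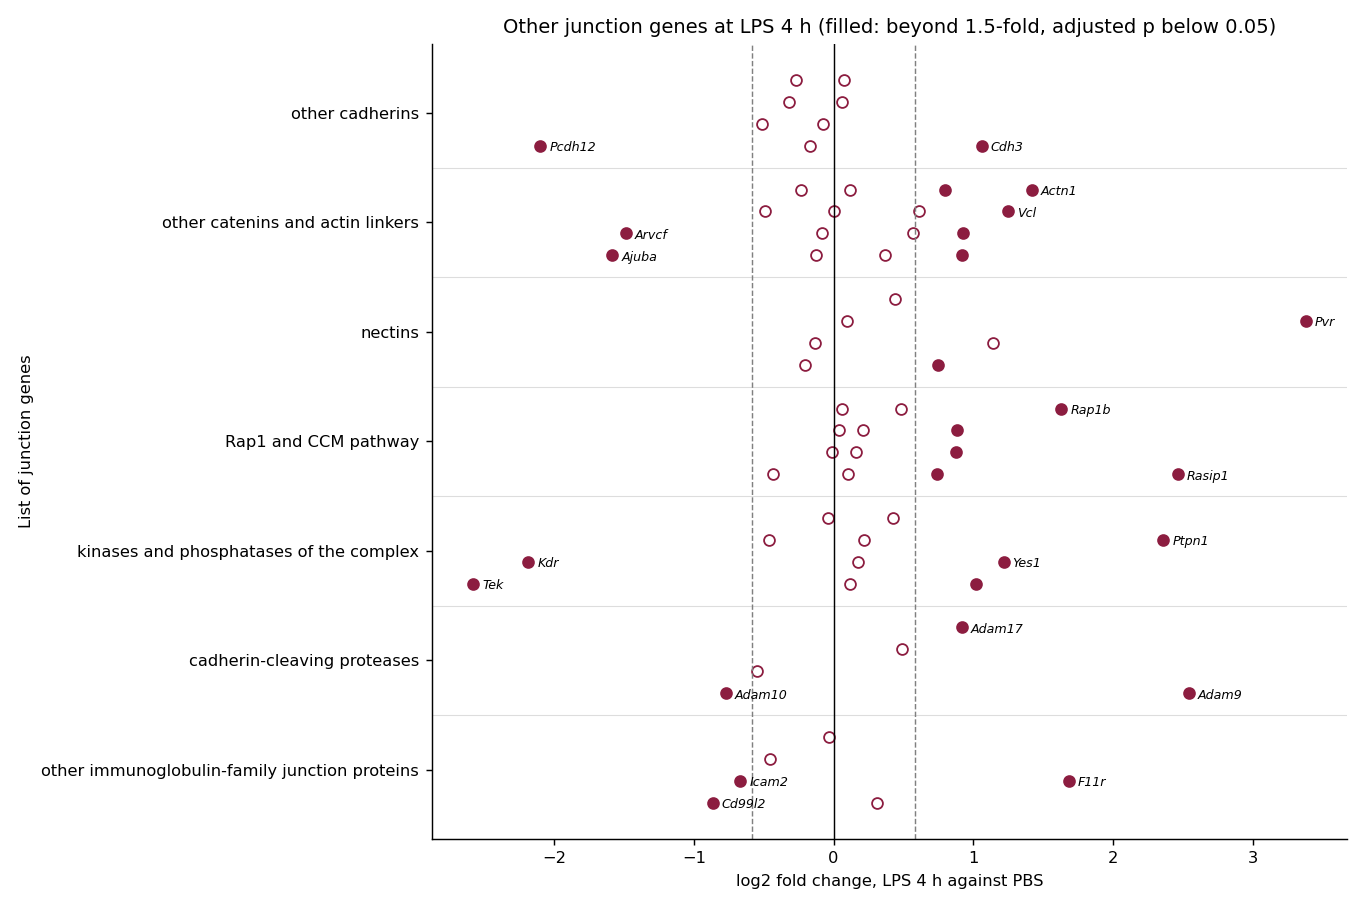
Log2 fold change at LPS 4 h against PBS of 67 other junction genes in 7 lists; each point is a gene, spread vertically within its list only for legibility, dashed lines mark 1.5-fold, and filled points were called beyond it (adjusted p below 0.05). Pvr (3.38), Adam9 (2.54), Rasip1 (2.46), and Ptpn1 (2.36) lie farthest to the right, and Tek (-2.58), Kdr (-2.18), and Pcdh12 (-2.10) farthest to the left.

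Other measures moved with LPS as well. At LPS 15 min the summed CPM of smooth muscle markers was 1488 to 1508 (2346 to 2382 in PBS), that of fibroblast markers 373 to 387 (548 to 575), that of astrocyte markers 570 to 614 (731 to 755), and that of neuron markers 543 to 561 (393 to 406). The endothelial sum was 17810 to 17960 at LPS 15 min, overlapping PBS, and 18460 to 18550 at LPS 30 min, above it. That sum hides unequal changes. Its most abundant gene in PBS, Slc2a1, averaged 2735 CPM there and 4455 and then 5514 at the early times, while Cldn5 averaged 2362, 1420, and 1269. At each early time 2 of the 15 markers were called higher, 2 lower, and 11 not at all. Of all genes, 4.18% at LPS 15 min and 4.58% at LPS 30 min were called in either direction. Their middle values were -0.105 and -0.226 on the log2 scale, so the sum does not stand for the list as a whole. At LPS 30 min the smooth muscle (2111 to 2159), fibroblast (460 to 466), and neuron (360 to 366) sums lay below PBS and the astrocyte sum (772 to 797) above. The marker calls that follow are for LPS 4 h, where 19% of all genes were called higher and 13.8% lower. Of 15 endothelial marker genes 11 were called lower beyond 1.5-fold and none higher. Flt1, at 1857 to 1908 CPM in PBS and 1767 to 1813 at LPS 4 h, and Ly6c1 were not among them, while Cldn5 went from 2310 to 2442 CPM to 472 to 480.5. All 6 neutrophil markers tested rose, from a sum of 2.36 to 2.83 CPM in PBS to 196 to 200.2 (Ly6g was at 0 in PBS and at most 0.599 CPM at LPS 4 h). The 5 choroid plexus markers summed to 10470 to 10910 CPM in PBS and 17600 to 18490 at LPS 4 h, with 3 higher. Of the other lists, 3 of 7 astrocyte and 2 of 5 platelet markers were higher, and 3 of 10 pericyte, 3 of 6 fibroblast, 3 of 7 microglia, 2 of 5 oligodendrocyte, 1 of 6 neuron, and 2 of 3 lymphocyte markers tested were lower, and none of 4 smooth muscle markers was called. No marker was at 0 in all libraries. The mean TMM factor was 1.17 in PBS, 1.15 after 15 min of LPS, 1.04 after 30 min, and 0.717 after 4 h. The part of these differences in the changes of the 10 genes was not tested.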

How the data were processed

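The members and gene lists were chosen with earlier results of these data known. Cerebral vessel RNA of 12 mouse libraries (3 per group, each a pool of 2 mice) had been amplified with SMART-Seq v4, tagged with Nextera XT, and read in pairs. The estimated counts deposited by the authors are the fragments that Salmon 1.2.1 assigned to each transcript (GRCm38.p6), not normalized. The TPM values were computed by the authors from these and the effective length of each transcript, another deposited value. The values of the deposited gene table are a normalized signal, made by the authors with tximport and DESeq2. Its columns were matched to libraries by the sequencing tag in their names, and 12 of 12 tracked their own library best.

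Estimated counts were joined to GENCODE M21 (139852 of 140948 transcripts; 0.482% to 0.850% of fragments left out), summed to genes, and rounded. Genes passing filterByExpr (minimum count 10, total 15) were fitted in edgeR 4.0.16 under R 4.3.3 with TMM factors and the group as the only term, all 12 libraries together. glmTreat tested against a null of at most 1.5-fold (0.585 on the log2 scale) and glmQLFTest against no change, with Benjamini-Hochberg adjustment over 19150 genes. The SE was taken as the size of a change over the root of its F statistic, with a common BCV (biological variation) of 0.0524. The fit was tested on simulated data. Ratios and transcript shares used TPM and no test. The effective length entered only an alternative. Named list genes were the 2 largest rises and falls called at LPS 4 h in each list, and every listed gene called at an earlier time. Pairs of libraries within a group differed by 2.21 to 2.93 times the variance of counting (median over genes), and each was kept as its own replicate. That check cannot tell pools of different mice from repeated preparations of 1 pool. The adjusted p values are set against this small spread within groups. Replicate numbers were not taken as a pairing. Alternatives were DESeq2 1.42.0, RLE factors, library size only, no filter, no fold limit, an added log2 limit of 1.5, a length offset, only the groups compared, a block, limma 3.58.1 on the gene table with 1 or 10 added (genes with a mean of at least 10), and leaving out each library. Those for the second test, for list genes, and for ratios of coding transcripts alone were chosen after seeing the data.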

Additional observations from a re-analysis of the deposited data

Results flagged for a closer look

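The changes that differ between LPS 4 h and LPS 30 min, each taken against the same PBS libraries, are given here because the difference itself passed the edgeR test beyond 1.5-fold. Values are the LPS 4 h minus LPS 30 min difference on the log2 scale. Among the 10 genes, the effect was higher at LPS 4 h for Cdh5 (2.24) and Esam (0.66). It was lower for Ptprb (-1.92), Jup (-1.82), Pecam1 (-0.88), and Afdn (-0.75). The Esam difference was lost with library size only, no filter, a length offset, and limma, and that of Afdn with limma (adjusted p = 0.176 and 0.198).

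Among the named genes of the lists, the effect at LPS 4 h was higher for Pvr (2.52), Adam9 (2.39), Ptpn1 (2.17), Rasip1 (2.01), Cdh3 (1.72), F11r (1.67), Vcl (1.46), Actn1 (1.43), Adam17 (1.14), Rap1b (1.08), Yes1 (0.96), and Mcam (0.83). It was lower for Tek (-2.07), Arvcf (-1.70), Kdr (-1.19), Pcdh12 (-1.08), Cd99l2 (-0.84), Ajuba (-0.82), and Icam2 (-0.80). The Pcdh12 call was lost with DESeq2 and without LPS 4 h replicate 3 (-0.98, adjusted p = 0.0512). That of Ajuba was lost with DESeq2, limma, and a length offset and without LPS 30 min replicate 1 (-0.71, adjusted p = 0.109). With library size only the calls of Adam17 (0.61, adjusted p = 0.239), Rap1b (0.55, adjusted p = 0.966), Yes1 (0.42, adjusted p = 1.0), and Mcam (0.29, adjusted p = 1.0) were lost. Groups of 3 libraries are too small for a check of single outlying libraries.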

How the results depend on the processing

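Of 13 calls of a member beyond 1.5-fold, 221 alternative values kept the direction, and 203 also kept the call. The cause of the other changes was not tested. Apart from the added log2 limit of 1.5, the calls lost at LPS 4 h were Cdh2 (DESeq2, without PBS replicate 3, without LPS 4 h replicate 1) and Esam (library size only). From LPS 30 min to LPS 4 h they were Esam (library size only, no filter, length offset, limma) and Afdn (limma). Without a fold limit, 7, 9, and 6 genes were called at LPS 15 min, LPS 30 min, and from LPS 15 to LPS 30 min. The added limit of 1.5 left 3 at LPS 4 h and 3 from LPS 30 min to LPS 4 h. It took the calls of Pecam1, Esam, and Afdn in both comparisons, and that of Cdh2 at LPS 4 h. Library size only turned the log2 fold change of Ctnnd1 (-0.04) and Esam (-0.091) at LPS 30 min, of Ctnna1 (-0.32) and Ctnnd1 (-0.33) at LPS 4 h, of Jup (-0.10), Esam (-0.080), and Ptprb (-0.10) from LPS 15 to LPS 30 min, and of Ctnnb1 (-0.50), Ctnna1 (-0.13), and Ctnnd1 (-0.29) from LPS 30 min to LPS 4 h. It gave new calls to Ctnnb1 at LPS 4 h (-0.89) and Cdh2 from LPS 30 min to LPS 4 h (-0.98). Turned values near 0 at LPS 15 min were Esam with DESeq2 (-0.0056), RLE factors (-0.0059), and library size only (-0.011), Cdh2 with library size only (-0.0046), a length offset (-0.014), and limma with 1 (-0.031) or 10 (-0.031) added, and Afdn with a length offset (7.6e-04). Without the filter Ctnnb1 was at -0.0026 from LPS 30 min to LPS 4 h. Leaving out 1 library gave -0.011 to 0.054 for Cdh2 at LPS 15 min and, from LPS 15 to LPS 30 min, -0.043 to 0.0071 for Ctnnd1 and 3 to 5 genes differing from no change. In the fit with a replicate block, 7 members were called at LPS 4 h, and no count of called members changed. Same-numbered libraries correlated at -0.17 to 0.10 in 18 comparisons, so the numbers were not read as a pairing. Of 45 called changes of the named list genes (the unnamed ones were not rerun), 693 of 765 alternative values kept the call, 72 lost it, and 0 turned. The 30 alternative ratios at LPS 4 h kept their sign, but 16 moved by at least 1 SD and 14 stayed within it. With the most abundant transcript only, Cdh2 to Cdh5 went from -2.76 to -2.39 and Ctnnd1 to Cdh5 from -1.60 to -1.93. Cdh2 had the fewest counts of the 10 genes and the largest SE.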
